A study of Arabidopsis thaliana with 6 samples.

Results

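Immune receptor genes of the NBS-LRR kind, and genes whose names place them beside these, were taken from a sheet of predicted miRNA targets in Arabidopsis thaliana. A gene was included where its description held the words disease resistance, NBS-LRR or NB-ARC, in any case. By this rule 379 of 23944 rows were included, with 81 of 7800 genes that had a predicted site. The sites belonged to 75 of 178 miRNA entries, and entries with identical counts in all 6 libraries were counted once, which left 65 of 142 distinct miRNA sequences. With the isoforms of a gene counted once there were 115 sites. The descriptions name 73 of the 81 genes as NBS or NB-ARC receptors. The other 8 entered through the words of the rule, namely 4 dirigent-like genes, 3 genes of the ENHANCED DISEASE RESISTANCE type with a DUF1336 domain, and BRX, a regulator of root growth.

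NBS-LRR proteins are receptors inside the plant cell that sense effector proteins of pathogens and set off defence. The TIR-NBS-LRR class has a Toll/interleukin-1 receptor domain at its start, and the CC-NBS-LRR class has a coiled coil there. In many plants miRNAs pair with receptor transcripts, and miRNAs of 22 nt are known to lead to secondary small RNAs made from the transcript they cut, through RDR6, SGS3 and DCL4. In Arabidopsis this is known for miR472, which pairs with CC-NBS-LRR transcripts.

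The libraries were 3 of ein2-1 and 3 of Col-0, made from the upper part of leaf explants. ein2-1 plants do not respond to ethylene, because EIN2, a protein of the membrane of the endoplasmic reticulum that relays the ethylene signal, is mutated. Col-0 is the wild type and the control. Seedlings of both genotypes were 14 days old, were put under water for 1 hour, and gave explants that spent 7 days on callus-inducing medium (CIM), so neither treatment can be read from the comparison. The mRNAs of the receptors were not measured, and every site below is a prediction of psRNATarget. Its expectation is a penalty score in which a lower value is a closer match, and the sheet reaches up to 5. Raw counts over all entries came to 1163907, 1882664 and 1430472 in ein2-1 and to 940058, 559411 and 569132 in Col-0.

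The sequences that the results turn on are the 5 miRNAs of 22 nt that hold a site, in RNA letters 5′ to 3′ with the seed (bases 2 to 8) in capitals.
miR773a: uUUGCUUCcagcuuuugucucc
miR393a/b-5p: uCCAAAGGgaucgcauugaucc
miR840-5p: aCACUGAAggaccuaaacuaac
miR830-5p: uCUUCUCCaaauaguuuagguu
unannotated 196: uAAUGGAUgaaaaaguaguauu
No 2 of the 65 sequences shared a seed. On the TAIR10.1 reference miR773a lay at chr1:13067313-13067334 on the plus strand, miR840-5p at chr2:771492-771513 on the minus strand and miR830-5p at chr1:4820473-4820494 on the minus strand. The miR393 sequence had copies at chr2:16652111-16652132 and chr3:20691657-20691678, both on the plus strand. The sequence called unannotated 196, after the number of its entry, matched no annotated MIR gene on its strand and had copies at chr4:1528335-1528356 and chr4:1535626-1535647, both on the plus strand. At most 2 positions were kept per sequence, so the miR393 sequence and unannotated 196 may have further copies on either strand.

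Their closest receptor sites are given next, 5′ to 3′ on the transcript, with the 2 bases opposite miRNA positions 10 and 11 in capitals, between which a cut would fall.
AT5G45200 site of miR773a: cuggauaaaagCAggaagcaga
AT4G19520 site of miR393a/b-5p: gaaucaaagcgGAcacuuugga
AT1G58848 and AT1G59218 site of miR840-5p: uauuguuuagaUCuuucagugg
AT4G12010 site of miR830-5p: acgauaaauugUUuggagaagc
RPP1 and AT3G44670 site of unannotated 196: cuugcuauuuuUUuaucuguau
The AT5G45200 site was at chr5:18286967-18286988 on the minus strand of TAIR10.1, in the coding sequence of a TIR-NBS-LRR gene. The AT4G19520 site was at chr4:10641110-10641131 on the minus strand, in the coding sequence of a TIR-NBS-LRR gene. The AT1G58848 and AT1G59218 sites, at chr1:21795016-21795037 and chr1:21831274-21831295 on the plus strand, lay in the coding sequence of CC-NBS-LRR genes and had identical letters. The AT4G12010 site was at chr4:7198979-7199000 on the minus strand, in the coding sequence of a TIR-NBS-LRR gene. The sites of unannotated 196 lay in the 3′ UTR of RPP1 at chr3:16091785-16091806 on the minus strand and of AT3G44670 at chr3:16221443-16221464 on the plus strand, again with identical letters.

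No entry used here carried the name of miR472, the miRNA best known for pairing with CC-NBS-LRR transcripts in Arabidopsis, nor that of miR825, miR482 or miR2118, and these were not analysed here. The same holds for miR173, miR403, miR163 and miR846. miR168, miR390 and miR400 had entries but no site in an immune receptor gene. The receptor sites described here belong to other sequences, several of them miRNAs known for other targets.

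Of the 73 receptor genes, 47 were TIR-NBS-LRR genes with 69 sites for 42 sequences. The CC-NBS-LRR class had 12 genes with 21 sites for 18 sequences, and the TIR-NBS class, which lacks the leucine-rich repeats, had 4 genes with 4 sites. The description gave no class for 10 genes with 11 sites. Each class had a median expectation between 4.0 and 4.5. The median over all sequence and gene pairs that met the rule was 4.0, the same as over all 10000 pairs of the sheet.

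Close matches were few. No pair that met the rule had an expectation under 2.5, whereas 373 pairs of the whole sheet did. Of the 115 pairs, 2.61% reached 2.5 or lower, against 7.04% of all pairs, and 11.3% reached 3 or lower, against 15.1% of all pairs. At an expectation of 4 or lower were 51.3% of the 115 pairs and 53.0% of all pairs. Cleavage, in place of inhibition of translation, was predicted for 81.7% of the pairs that met the rule and for 82.9% of all pairs. For 2 of the 65 sequences, unannotated 30 and unannotated 199, a receptor site was as close as their closest target of any kind. Per sequence the closest site in these genes had a median expectation of 4.0, against 2.0 for the closest target of any kind.

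**Figure D1:**
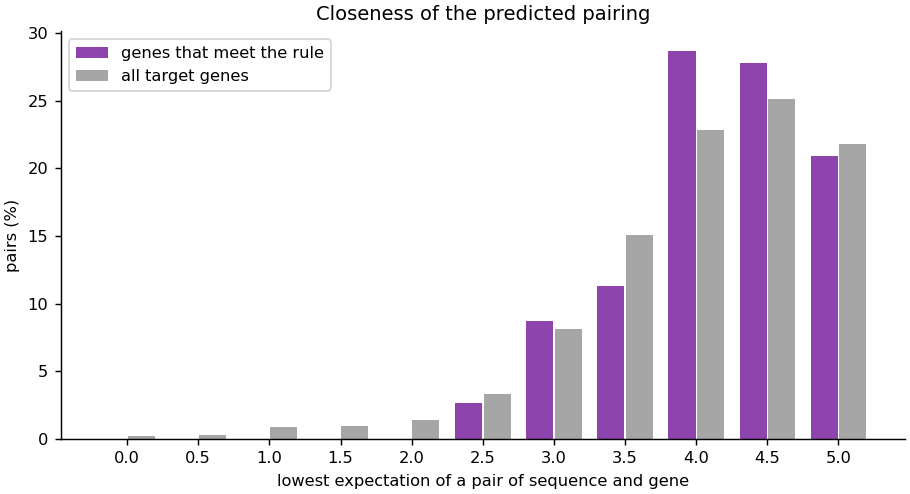
Share of sequence and gene pairs (%, y axis) at each lowest expectation (x axis, lower is closer), for the genes that meet the rule (purple, 115 pairs) and for all target genes (grey, 10000 pairs, of which 0.09% lie between these steps and are not drawn). The purple bars start at 2.5, and both sets have most of their pairs at 4.0 and above.

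The numbers of sites of 22-nt sequences and of other sequences lay within each other's spread. Of 9 such sequences, 5 held a site (55.6%), against 60 of 133 sequences of other lengths (45.1%). The 22-nt sequences had 0.778 ± 0.833 sites each (SD over 9 sequences), and the others 0.812 ± 1.21 (SD over 133 sequences). Receptor sites and those of the 8 other genes made up 7 of 673 target pairs of the 22-nt sequences (1.04%) and 108 of 9327 pairs of the others (1.16%). No test was made, since sites of the same sequence are not independent. The 7 sites of the 22-nt sequences were in 7 receptor genes. By length, the 65 sequences were 2 of 19 nt, 5 of 20 nt, 26 of 21 nt, 5 of 22 nt, 6 of 23 nt and 21 of 24 nt. The 23-nt sequences had no site at an expectation of 3 or lower, and the 24-nt sequences had 4.

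Among the 65 sequences, falls in ein2-1 outnumbered rises with TMM scaling. In edgeR's quasi-likelihood test 54 sequences had enough counts to be tested, and 11 rose and 20 fell at an adjusted p below 0.05, while 23 did not pass. These were 20.4% rises and 37.0% falls, against 34.7% rises and 32.2% falls over all 118 sequences tested. Calls in either direction made up 57.4%, below the 66.9% over all sequences. The median log2 fold change was -0.10 for the 54 sequences, 0.06 over all 118, and 0.48 for the 64 tested sequences without such a site. On the CPM scale, which divides the counts by the TMM-scaled library total, ein2-1 and Col-0 had no overlap for 31 of the 54 sequences, with ein2-1 above for 12 and below for 19. Over all 118 sequences 66.9% had no overlap.

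The split between rises and falls depended on the scaling, and the direction of the called sequences did not. Rises made up 35.5% of the calls with TMM or RLE factors, 29.6% with 1 entry per distinct sequence, 19.5% with library sizes alone and 51.4% with totals that left out the most abundant sequence. Relative to TMM these scalings moved the median sequence by -0.12 (RLE), -0.20 (1 entry), -0.69 (library sizes) and 0.29 (without the most abundant sequence) in log2. With no filter on low counts rises made up 54.1% of the calls. Under each of the 5 scalings 8 sequences rose and 17 fell, and none was called in opposite directions. Some sequences picked by the rule for naming did not pass with TMM but were called otherwise. Library sizes alone called falls of miR158a-3p, miR396a-5p, miR397b, miR852 and the MIR5014a product. Totals without the most abundant sequence called rises of miR830-5p and miR844-3p. The number of rises was 20 without Col-0 replicate 1 and 17 without Col-0 replicate 2.

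Among the 22-nt sequences, 3 fell, 1 rose and 1 did not pass. Over all 118 sequences tested 66.9% were called, with 32.2% falls and 34.7% rises. miR773a, which fell, is known in Arabidopsis for pairing with the transcript of a DNA methyltransferase, and it holds the receptor site with the lowest expectation of any annotated miRNA (2.5, AT5G45200, translation predicted). miR773a had 204, 311 and 246 raw counts in ein2-1, against 1883, 1279 and 1152 in Col-0. Every ein2-1 library was far below every Col-0 library, although the Col-0 libraries were shallower. Its level was 217.6 ± 14.3 CPM in ein2-1 and 1654 ± 119.6 CPM in Col-0 (SD, n = 3 each), a log2 fold change of -2.93 (edgeR adjusted p = 3.1e-08, SE 0.18).

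miR393a/b-5p moved the other way. Its known targets are the TIR1 and AFB auxin receptors, and it is induced in Arabidopsis by the bacterial peptide flg22. miR393a/b-5p had 2172, 3601 and 4482 raw counts in ein2-1 and 468, 236 and 296 in Col-0. The groups were far apart, with a log2 fold change of 2.97 (edgeR adjusted p = 3.2e-07, SE 0.25). Its receptor site, in AT4G19520, was a distant match, with an expectation of 4.5, while its closest target of any kind had 1.0.

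unannotated 196 had the largest fall of the 22-nt sequences. It had 5, 10 and 9 raw counts in ein2-1, against 122, 89 and 77 in Col-0. The ein2-1 libraries were all low and the groups did not overlap, with a log2 fold change of -3.99 (edgeR adjusted p = 1.4e-07, SE 0.30). Its sites in RPP1, a receptor for downy mildew, and in AT3G44670, a gene of the same cluster, had an expectation of 5.0, the highest in the sheet. miR840-5p had 43, 97 and 100 raw counts in ein2-1 and 162, 118 and 145 in Col-0. These did not overlap either, and miR840-5p fell by 1.28 on the log2 scale (edgeR adjusted p = 0.00115, SE 0.28).

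miR830-5p, the only 22-nt sequence that did not pass, had 25, 36 and 58 raw counts in ein2-1 and 20, 16 and 21 in Col-0. In CPM the libraries overlapped, at a log2 fold change of 0.64 (edgeR adjusted p = 0.126, SE 0.37). Its value depended on the scaling, with -0.06 under library sizes alone and 0.91 with totals that left out the most abundant sequence, where it was called a rise (edgeR adjusted p = 0.00871). It was also called a rise with no filter (0.78) and without Col-0 replicate 2 (0.80) or 3 (0.95). Its AT4G12010 site had an expectation of 3.0 and was 1 of 2 sites of 22-nt sequences at 3 or lower, beside that of miR773a.

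**Figure D2:**
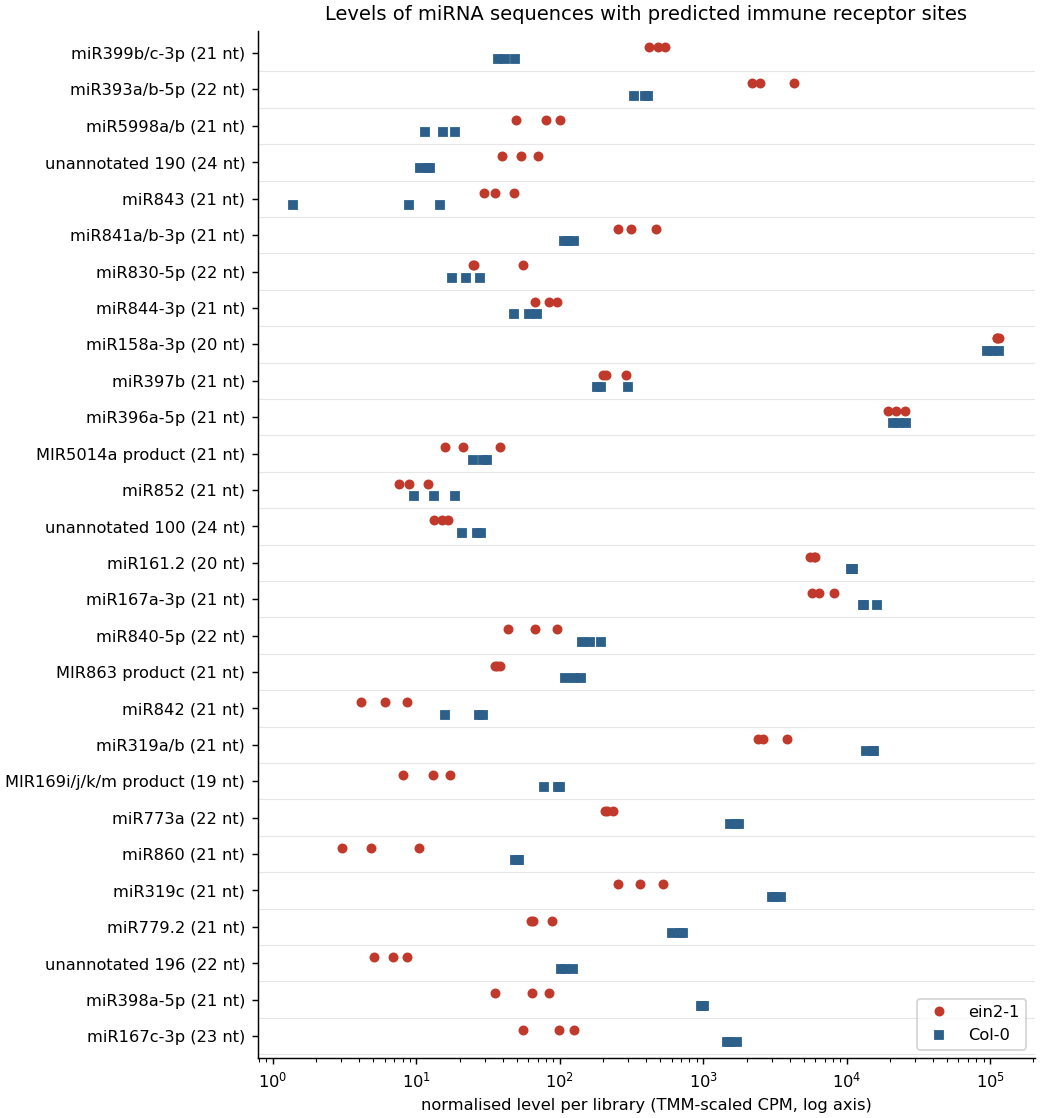
Level in each library (TMM-scaled CPM, logarithmic x axis) of the 28 tested sequences picked by the rule for naming, in order of log2 fold change. ein2-1 is drawn as red circles above Col-0 as blue squares (n = 3 each). miR399b/c-3p and miR393a/b-5p are far higher in ein2-1, miR158a-3p and miR396a-5p overlap, and the sequences from miR319a/b downwards are at least several-fold lower in ein2-1.

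Sites at an expectation of 3 or lower were held by 13 sequences in 13 genes, of which 12 were receptor genes. Of these 13 sequences 5 fell, 0 rose and 7 did not pass in edgeR's test, and 1 was not tested. The falls were 41.7% and the calls in either direction 41.7% of the 12 tested, against 32.2% falls, 34.7% rises and 66.9% calls over all 118 sequences. Besides miR773a, the lowest expectation of 2.5 was that of miR860 and of unannotated 105.
AT5G41750 site of unannotated 105: cuccaaaauucucGUuuuguguuu
AT1G55210 site of miR860: aaacagauuuCAaucuauuga
The AT5G41750 site was at chr5:16698380-16698403 on the plus strand, in the 3′ UTR of a TIR-NBS-LRR gene. unannotated 105, of 24 nt, had 5, 1 and 8 raw counts in ein2-1 and 5, 6 and 5 in Col-0, too few to be tested. The AT1G55210 site, at chr1:20597976-20597996 on the minus strand, was in the 3′ UTR of a dirigent-like gene and not in a receptor gene. miR860 had 3, 7 and 11 raw counts in ein2-1, against 58, 35 and 39 in Col-0. The groups were well apart, at a log2 fold change of -3.04 (edgeR adjusted p = 5.8e-06, SE 0.36).

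At an expectation of 3.0, falls were found for 3 sequences. The MIR169i/j/k/m product of 19 nt comes from genes of the family known for NF-YA transcription factors. It matched no annotated mature miRNA, so its values are not those of mature miR169. The MIR169i/j/k/m product had 8, 19 and 18 raw counts in ein2-1 and 88, 70 and 76 in Col-0. All its ein2-1 libraries were lower, and it fell by 2.82 on the log2 scale (edgeR adjusted p = 2.9e-06, SE 0.30). miR161.2, known for pairing with transcripts of pentatricopeptide repeat proteins, had 5980, 8607 and 5838 raw counts in ein2-1 and 12379, 7686 and 8308 in Col-0. Its raw counts overlapped between the deeper ein2-1 and the shallower Col-0 libraries, and in CPM they did not, with 5827 ± 254.5 in ein2-1 and 10868 ± 213.0 in Col-0 (SD, n = 3 each). The log2 fold change was -0.90 (edgeR adjusted p = 6.3e-05, SE 0.14), and its closest receptor site was in the 3′ UTR of AT1G61180. unannotated 100, of 24 nt, had 15, 24 and 14 raw counts in ein2-1 and 32, 15 and 20 in Col-0, which did not overlap in CPM, at a log2 fold change of -0.75 (edgeR adjusted p = 0.0257, SE 0.28). The call of unannotated 100 was lost without each of the 6 libraries in turn (edgeR adjusted p of 0.0558 to 0.27). It was also lost in DESeq2 (adjusted p = 0.0735), with no filter on low counts (edgeR adjusted p = 0.0881), with the replicate number as a block (edgeR adjusted p = 0.0521) and with totals that left out the most abundant sequence (edgeR adjusted p = 0.233).

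The others with a site at 3.0 did not pass. miR396a-5p, known for growth-regulating factors and with a site in AT1G63880, had 19105, 36847 and 23108 raw counts in ein2-1 and 29194, 15304 and 17482 in Col-0. The libraries overlapped, at a log2 fold change of -0.08 (edgeR adjusted p = 0.654, SE 0.15). The MIR5014a product, with a site in the CC-NBS-LRR gene AT1G53350, had a log2 fold change of -0.22 (edgeR adjusted p = 0.569, SE 0.34). miR162a/b-3p, known for pairing with the transcript of DCL1, had its receptor site in the coding sequence of AT5G36930. It had 750, 1040 and 889 raw counts in ein2-1 and 649, 445 and 440 in Col-0, and in CPM all ein2-1 libraries were above all Col-0 libraries. Its log2 fold change of 0.38 (edgeR adjusted p = 0.0622, SE 0.17) did not pass. With totals that left out the most abundant sequence it was called a rise. The remaining 3 sequences that did not pass were miR866-3p (0.00), unannotated 199 (-0.11) and unannotated 30 (-0.46), with their log2 fold changes in brackets. Library sizes alone called falls of miR866-3p and unannotated 30.

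**Figure D3:**
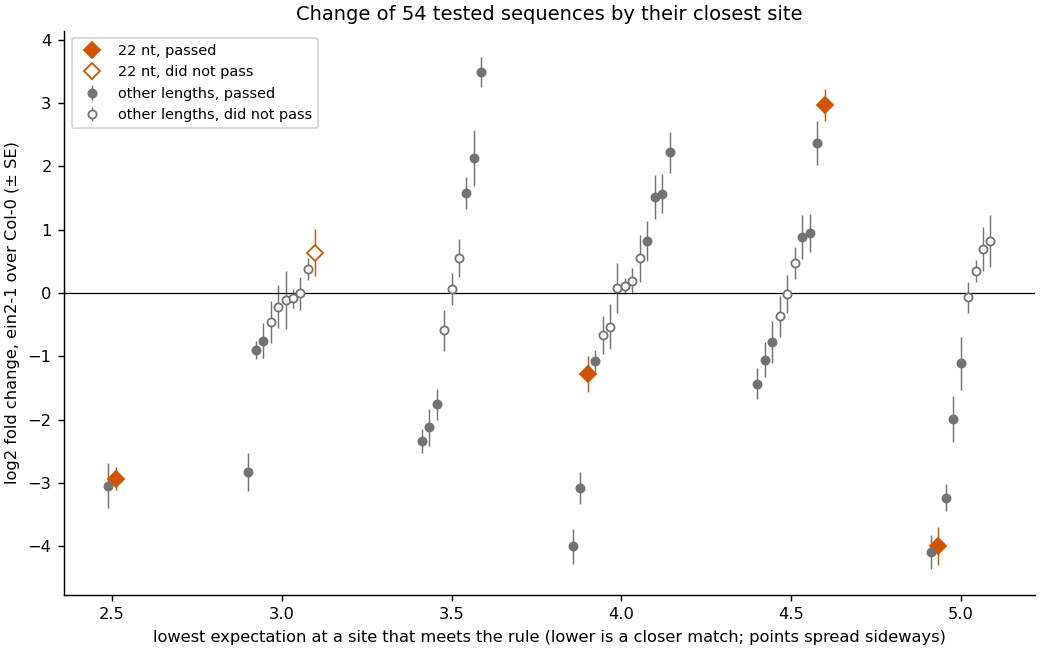
Change in level, as log2 of ein2-1 over Col-0 (y axis, bars are SE), against the lowest expectation at a site that meets the rule (x axis; points at the same value are spread sideways) for the 54 tested sequences, with 22 nt as orange diamonds, other lengths as grey circles and filled symbols for those that passed. Filled symbols run from -4.09 to 3.49, and 5 of them lie at an expectation of 3.0 or lower.

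The sequences with sites in the most genes included miRNAs known for other targets, with distant matches to receptor transcripts. miR319a/b, known for TCP transcription factors, had sites in 6 genes, of which 5 were receptor genes that share a single site sequence in the cluster of RPP4 and RPP5 on chromosome 4. miR158a-3p had sites in 4 receptor genes, of which RPP1, AT3G44400 and AT3G44630 share a site in the 3′ UTR.
miR319a/b: uUGGACUGaagggagcucccu
RPP4, RPP5, AT4G16920, AT4G16940 and AT4G16960 site of miR319a/b: gaagagcucuUUucagucaac
miR158a-3p: uCCCAAAUguagacaaagca
RPP1, AT3G44400 and AT3G44630 site of miR158a-3p: uguuuuaucUAuguuuggua
The miR319a/b site was in the coding sequence, in RPP4 at chr4:9491852-9491872 and in RPP5 at chr4:9543518-9543538, both on the minus strand, with an expectation of 4.5. The miR158a-3p site in RPP1 was at chr3:16090581-16090600 on the minus strand, with an expectation of 4.0. In all, 5 site sequences were shared by several receptor genes, 11 genes together, so the 105 receptor sites had 96 distinct sequences.

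miR319a/b had 2373, 3796 and 4040 raw counts in ein2-1, against 17338, 11132 and 10308 in Col-0. The groups were far apart, and miR319a/b fell by 2.33 on the log2 scale (edgeR adjusted p = 2.0e-07, SE 0.19). miR319c, which shares most of its bases with miR319a/b, had 520, 527 and 266 raw counts in ein2-1 and 3558, 2508 and 2283 in Col-0, at a log2 fold change of -3.08 (edgeR adjusted p = 2.0e-07, SE 0.25). How the counting divided reads between these 2 sequences is not given in the sources used here, so their values may not be independent. miR158a-3p, the most abundant sequence with a receptor site, had 110906, 168247 and 117681 raw counts in ein2-1 and 130063, 69140 and 77294 in Col-0. In CPM its libraries overlapped, at 113027 ± 2242 in ein2-1 and 104412 ± 9798 in Col-0 (SD, n = 3 each). Its log2 fold change was 0.11 (edgeR adjusted p = 0.419, SE 0.12), and -0.58 under library sizes alone (edgeR adjusted p = 2.87e-05).

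Also with sites in 4 or 5 genes were the MIR169i/j/k/m product, the MIR5014a product, miR397b, miR841a/b-3p, miR852 and unannotated 290. Receptor genes among these numbered 2 for miR852, 3 for the MIR5014a product and 4 for each of the others. miR841a/b-3p, with sites in WRR4, AT2G17060, AT4G12010 and AT1G63860, had 251, 453 and 494 raw counts in ein2-1 and 128, 77 and 95 in Col-0. All its ein2-1 libraries were higher, at a log2 fold change of 1.58 (edgeR adjusted p = 8.1e-05, SE 0.25). miR397b, known for laccases, had 207, 291 and 305 raw counts in ein2-1 and 205, 214 and 145 in Col-0, which overlapped in CPM (log2 fold change 0.06, edgeR adjusted p = 0.84, SE 0.25). miR852 had a log2 fold change of -0.59 (edgeR adjusted p = 0.119, SE 0.33). unannotated 290, of 24 nt, had 5, 23 and 17 raw counts in ein2-1 and 5, 2 and 3 in Col-0. In CPM all its ein2-1 libraries were above all Col-0 libraries, at 12.3 ± 6.31 in ein2-1 and 3.72 ± 0.857 in Col-0 (SD, n = 3 each). It was left out by the filter on low counts, so it was not tested in the fit used for calls.

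The largest rises among sequences with a site were those of miR399b/c-3p, miR393a/b-5p, miR5998a/b, unannotated 190 and miR843. miR399 is known for lowering PHO2, which limits phosphate uptake. miR399b/c-3p had 415, 790 and 512 raw counts in ein2-1 and 55, 30 and 28 in Col-0, far apart, at a log2 fold change of 3.49 (edgeR adjusted p = 4.8e-08, SE 0.24). Its 3 receptor sites were in the coding sequence of AT1G31540, AT2G14080 and AT4G19510, at expectations of 3.5 and 4.0. miR5998a/b rose by 2.37, unannotated 190 by 2.22 and miR843 by 2.13 in log2 (edgeR adjusted p = 4.0e-05, 4.0e-05 and 6.5e-04). miR843 had 35, 43 and 50 raw counts in ein2-1 and 10, 1 and 11 in Col-0, with its site in AT1G56520, next to WRR4.

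The largest falls were those of miR167c-3p, miR398a-5p, unannotated 196, miR779.2 and miR319c. miR167c-3p and miR398a-5p come from the arm opposite to the miRNA known for auxin response factors and for copper superoxide dismutases. miR167c-3p had 97, 81 and 132 raw counts in ein2-1, against 1927, 1113 and 1104 in Col-0, at a log2 fold change of -4.09 (edgeR adjusted p = 4.8e-08, SE 0.27). miR398a-5p had 63, 123 and 37 raw counts in ein2-1 and 1150, 699 and 742 in Col-0, at a log2 fold change of -4.00 (edgeR adjusted p = 5.7e-08, SE 0.28). No library of ein2-1 came near any of Col-0 for these sequences. The site of miR398a-5p was in WRR4, a receptor for white rust, at an expectation of 4.0, and that of miR167c-3p in the 3′ UTR of AT5G45240 at 5.0. miR779.2 had 87, 95 and 66 raw counts in ein2-1 and 779, 438 and 542 in Col-0 (log2 fold change -3.23, edgeR adjusted p = 5.3e-08, SE 0.22), with its site in AT5G18370. miR167a-3p, among the most abundant sequences with a site, also fell (log2 fold change -1.07, edgeR adjusted p = 7.0e-05, SE 0.17).

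Of the miRNAs linked to immunity or to secondary small RNAs, miR842 and miR844-3p also had receptor sites. So did the MIR863 product, which was listed by the name of its gene. It matched no annotated mature miRNA, so its values are not those of mature miR863. The MIR863 product, with sites in AT5G38350 and in RRS1, had 38, 53 and 37 raw counts in ein2-1 and 123, 91 and 105 in Col-0. Its groups did not overlap, and it fell by 1.76 on the log2 scale (edgeR adjusted p = 2.1e-05, SE 0.24). miR842 had 6, 6 and 9 raw counts in ein2-1 and 31, 21 and 12 in Col-0, and fell by 1.99 on the log2 scale (edgeR adjusted p = 2.2e-04, SE 0.36). miR844-3p had a log2 fold change of 0.47 (edgeR adjusted p = 0.111, SE 0.25), with -0.23 under library sizes alone (edgeR adjusted p = 0.386). It was called a rise with totals that left out the most abundant sequence (0.75, edgeR adjusted p = 0.00879), with no filter (0.62) and without Col-0 replicate 1 (0.63) or 2 (0.76). RRS1, which acts together with RPS4, also had a site for miR391-3p, which rose (log2 fold change 1.57, edgeR adjusted p = 4.5e-04, SE 0.31).

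Seen from the receptor genes, 31 of 73 had a site for a sequence that fell and 17 for a sequence that rose, 6 of them both, and 31 had neither. These were 42.5% with a fall, 23.3% with a rise and 8.22% with both, against 34.1%, 33.4% and 4.72% of all 7800 genes with a site. The receptor genes had sites for 1.44 sequences on average, against 1.28 over all genes. The 6 genes with both were AT4G12010, WRR4, AT1G58410, AT1G27180, RRS1 and RPP5. For AT1G58410 and AT1G27180 this rested on unannotated 100 and on unannotated 268, whose rise was lost under library sizes alone, with 1 entry per distinct sequence, in DESeq2 and without ein2-1 replicate 1 or 3. A site for a single sequence was found for 51 receptor genes, for 2 sequences for 13, for 3 sequences for 8 and for 4 sequences for 1. The last was AT4G12010, a TIR-NBS-LRR gene at chr4:7196991-7201571, with sites for the MIR169i/j/k/m product, which fell, for miR841a/b-3p and unannotated 190, which rose, and for miR830-5p, which did not pass. Sites for 3 sequences were found in AT4G19510, AT5G18370, WRR4, AT3G44400, RPP1, AT5G35450, AT1G63360 and AT1G15890. Of the 69 TIR-NBS-LRR sites 16 were for sequences that rose and 22 for sequences that fell, and of the 21 CC-NBS-LRR sites 1 and 7. Over all 10000 pairs of sequence and gene, 29.5% were for sequences that rose and 28.9% for sequences that fell, beside 23.2% and 31.9% for TIR-NBS-LRR and 4.76% and 33.3% for CC-NBS-LRR, and no difference between the classes was tested. The same miRNA counts several times in these site counts, so no test was made.

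Receptors with a known pathogen were among the genes with a site. WRR4 had sites for the MIR1888b product (log2 fold change -2.12), miR398a-5p and miR841a/b-3p. RPP1 had sites for miR158a-3p, unannotated 196 and unannotated 290. RPP4 had only the miR319a/b site, and RPP5 had this and a site for unannotated 190. Others were RPS2, which detects loss of RIN4, with a site for unannotated 24 (log2 fold change 0.70), RPS6 with unannotated 214 (-0.67) and RLM1 with unannotated 25 (-0.53). None of these passed with TMM. Totals that left out the most abundant sequence called a rise of unannotated 24, and library sizes alone called falls of unannotated 214 and unannotated 25. RLM3, a TIR-NBS gene for resistance to Leptosphaeria, had a site for unannotated 60, which fell (log2 fold change -1.11, edgeR adjusted p = 0.0288, SE 0.42, with libraries that overlapped in CPM). That call was lost with totals that left out the most abundant sequence (edgeR adjusted p = 0.0705), with no filter (0.0585), and without Col-0 replicate 2, Col-0 replicate 3 or ein2-1 replicate 3 (0.0928 to 0.183). CSA1, which works with the receptor CHS3, had a site for miR5026, which fell (log2 fold change -1.05, edgeR adjusted p = 0.00379, SE 0.28), and RPP8 had one for miR394a/b-5p, which fell (log2 fold change -1.43, edgeR adjusted p = 1.2e-04, SE 0.24). All of these sites had an expectation of 3.5 to 5.0.

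Many of the receptor genes lie beside each other in the genome. Only the 73 genes with a predicted site were joined, so a gene given as alone may lie beside a receptor gene without a site. With these genes joined where the gap was at most 100000 bases, 46 of the 73 lay in 14 clusters and 27 stood alone. The largest, at chr4:9488466-9565569, held 7 genes, among them RPP4, RPP5 and RLM3, with sites for 5 sequences. Clusters of 5 genes were at chr1:21695699-21833018, with the miR840-5p sites, and at chr5:18758699-18872494, with RPS6. Clusters of 4 genes were those of RRS1 and AT5G45200 at chr5:18283663-18332920, of RPP1 at chr3:16044662-16221722 and of RLM1 at chr1:23650840-23783449. Chromosomes 1 and 5 had 22 of the 73 genes each, chromosome 4 had 19, chromosome 3 had 8 and chromosome 2 had 2.

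Of the 105 receptor sites 68 were in the coding sequence, 23 in the 3′ UTR, 10 in the 5′ UTR and 4 across an edge of the coding sequence. In 4 equal parts of the coding sequence from its start there were 21, 18, 10 and 19 sites. All 7 seed bases were paired, G:U pairs included, at 42 of the 105 sites, and positions 10 and 11 at 86. Unpaired bases numbered 1 to 8 per site, with a median of 3.0. Sites of 24-nt sequences had up to 8 unpaired bases, sites of 21-nt sequences 1 to 4, and sites of 22-nt sequences 3 to 5. The median number past base 19 was 2.0 at sites of 22-nt sequences and 1.0 at those of 21-nt and of 24-nt sequences. A low expectation could go with many unpaired bases. The AT1G58410 site of unannotated 100 had 7, of which 5 lay past base 19, at an expectation of 3.0.

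**Figure D4:**
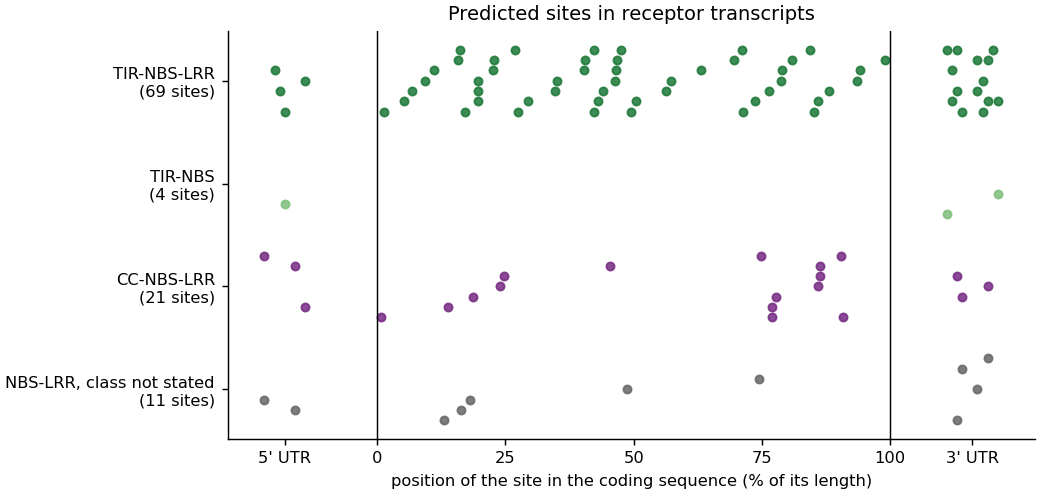
Position of predicted sites in receptor transcripts by class (rows), as % of the coding sequence (x axis) with the 5′ UTR at the left and the 3′ UTR at the right, where points are spread sideways and up and down only to be seen. The 4 sites across an edge of the coding sequence are not drawn, and sites run along the whole coding sequence of TIR-NBS-LRR genes.

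Other genes of immune signalling and of secondary small RNAs were examined from lists. Of 24 immune signalling genes 10 had a predicted site, 5 for a sequence that fell and 1 for a sequence that rose, which is 50% and 10% of the 10, against 34.1% and 33.4% of all genes with a site. EDS1, which passes on the signal of TIR receptors, had a site for miR398a-5p (expectation 4.5), and SGT1A, a co-chaperone of receptors, for the MIR169i/j/k/m product (4.5). RBOHD, the oxidase of the defence burst, had a site for the MIR1888b product (4.5), and CERK1, the chitin receptor kinase, for a 24-nt unannotated sequence (4.0, log2 fold change -1.07, a call lost in DESeq2, with no filter, with totals that left out the most abundant sequence and without Col-0 replicate 1 or 2 or ein2-1 replicate 1 or 2). BIR1, a kinase that restrains cell death, had the closest site, with an expectation of 1.0, for a 20-nt unannotated sequence that fell by 2.54 on the log2 scale. BAK1, a co-receptor kinase, had a site for another 24-nt unannotated sequence, which rose (log2 fold change 0.52). That call was lost with RLE factors, with 1 entry per distinct sequence, in DESeq2 and without ein2-1 replicate 1 or 2, and library sizes alone gave -0.16. PAD4, SAG101, NDR1, RIN4 and NPR1 were among the 14 with no site.

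Of the 11 genes of the secondary small RNA pathway 8 had a site, 2 for a sequence that rose and 2 for a sequence that fell. These were 25% of the 8 each, against 33.4% with a rise and 34.1% with a fall over all genes with a site. DCL1 had the known site of miR162a/b-3p and AGO1 that of miR168a/b-5p, both at an expectation of 3.0. DCL1 also had a site for miR860, which fell (expectation 4.0, log2 fold change -3.04). DCL4 had a site for unannotated 61, of 24 nt, which rose (expectation 4.5, log2 fold change 2.22). miR168a/b-5p fell (log2 fold change -1.14), and miR172a/b-3p, with a site in DCL2, rose (0.71), a call that was lost with 1 entry per distinct sequence (edgeR adjusted p = 0.116) and under library sizes alone (edgeR adjusted p = 0.998). RDR6 and SGS3 each had 1 site, at an expectation of 5.0, for unannotated 174 and unannotated 176, which had too few counts to be tested. AGO2, AGO7 and SDE5 had no site.

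The 65 sequences together took 25.6%, 25% and 23.6% of the counts of distinct sequences in the ein2-1 libraries, against 40.5%, 37.5% and 40.3% in the Col-0 libraries. Every ein2-1 library had a smaller share, and a share moves with all other sequences of its library. miR158a-3p alone took 18.3%, 17% and 15.9% in ein2-1 and 23.4%, 20.8% and 22.9% in Col-0. Of the 65 sequences 37 were annotated and 28 were not. Of the annotated 7 rose, 16 fell and 12 did not pass, and of the unannotated 4 rose, 4 fell and 11 did not pass. Over all 118 sequences tested 34.7% rose and 32.2% fell. The median level was 178.2 CPM for the annotated and 11.1 CPM for the unannotated, and no difference between them was tested. The 11 that were not tested had at most 31 raw counts in any library, and 7 of them had 24 nt. The sequences not named by the rule for naming were 5 that rose, with log2 fold changes of 0.82 to 1.57, 5 that fell, with -2.12 to -0.77, and 16 that did not pass.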

How the data were processed

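Per the submitters' processing notes, cutadapt was used on the reads and the genome was TAIR10. No source used here gives the aligner, the counter or the settings of psRNATarget. The deposited table gives raw counts per miRNA entry, the authors' log2 fold change and FDR (an adjusted p-value), which were not used for calls, and a psRNATarget expectation score per predicted site. Another 6 columns of normalised values were not used. Entries with identical counts were counted once in the numbers of sequences, sites and calls, but stayed separate in the fit, the library totals and the CPM. Totals over entries and over distinct sequences were 1163907 and 606476 in ein2-1 replicate 1, and 940058 and 556692 in Col-0 replicate 1. With 1 entry per distinct sequence, the calls of miR156a/b/c/d/e/f/g-5p (19-nt form), unannotated 16, unannotated 160 and unannotated 268 were lost. All entries entered an edgeR 4.0.16 fit of the counts (R 4.3.3, quasi-likelihood, TMM, filterByExpr, two-sided, Benjamini-Hochberg over 153 entries, threshold 0.05), genotype as the only term, and 25 entries fell to the filter. In 20 simulated sets of the 142 sequences, edgeR's test recovered 76.1% of the 2-fold changes and 100% of the 4-fold changes among sequences that passed its filter. False calls made up 3.66% of the total. In the simulations a minority of sequences changed, equally up and down, whereas 66.9% of the sequences tested in the data were called. The simulated shares therefore do not measure error that comes from the scaling. Every fold change has ein2-1 on top. The design text gives 3 biological replicates per genotype. The site letters of all 379 target rows were found in the TAIR10.1 RefSeq transcripts of equal length. Names of miRNAs come from that annotation, and mature sequences from the deposited table. The members, the gene lists and the rule for naming were chosen with earlier results of these data known. The rule names every 22-nt sequence with a site, the 8 with most genes, the 8 with the lowest expectation, the 5 largest rises and 5 largest falls without overlap, the 5 most abundant, and listed miRNAs and receptor genes. Sequences outside it were named after their values were seen. Alternatives were other scalings, filters, thresholds and expectation limits, a replicate block, DESeq2 1.42.0, and each library left out. Tables and figures used Python 3.11.15, pandas 2.3.3, numpy 2.4.6 and matplotlib 3.10.9.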

Additional observations from a re-analysis of the deposited data

How the results depend on the processing

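Of the 31 calls, with 11 rises and 20 falls, library sizes alone gave 33 falls, no filter gave 20 rises, and totals without the most abundant sequence gave 18 rises. With each library left out in turn there were 27 to 38 calls, with 9 to 20 rises and 17 to 19 falls. With a limit on expectation of 4 there were 19 calls, with 7 rises and 12 falls, for 49 genes and 41 sequences, and with a limit of 3 there were 5 calls, with 0 rises and 5 falls, for 13 genes and 13 sequences. DESeq2 gave 26 calls, with 8 rises and 18 falls, and the stricter description gave 30 calls. A replicate block gave 30 calls (12 rises and 18 falls). Deviations of libraries with the same number correlated at 0.207, -0.0457 and 0.175, and those of libraries with unlike numbers at -0.24 to 0.0402. The design text names no pairing, and the numbers were not taken as pairs.

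Among the sequences picked by the rule for naming, the sign of the log2 fold change turned only for some that had not passed. miR158a-3p had -0.58 under library sizes alone, -0.01 with 1 entry per distinct sequence and -0.02 in DESeq2. miR397b had -0.07 with RLE, -0.64 under library sizes alone, -0.12 with 1 entry, -0.10 in DESeq2 and -0.12 to 0.49 with a library left out. miR396a-5p had 0.08 with no filter, 0.21 with totals without the most abundant sequence, and -0.19 to 0.16 with a library left out. miR830-5p had -0.06 and miR844-3p -0.23 under library sizes alone. The MIR5014a product had 0.04 with totals without the most abundant sequence and -0.65 to 0.05 with a library left out. The cause was not tested. Of the other values of the sequences picked by that rule, 351 kept their direction and call, 13 gained a call and 10 lost one. Low counts kept 11 of the 65 sequences out of the test, and the expectation limit changes the counts because it leaves fewer sites.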
